A study of Mus musculus with 9 samples.

Results

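Metallothioneins and iron handling are described here through 8 genes chosen by name from the 34310 genes of the deposited table: Mt1, Mt2, Slc39a14, Slc40a1, Slc11a2, Tfrc, Fth1 and Ftl1. Each has 1 row in the table, so no row had to be chosen among repeats, and all 8 passed the expression filter (a mean of at least 0.5 FPKM over the 9 libraries), which 15015 genes passed. RNA came from fresh mouse kidney, 3 mice to a group, with 1 library per mouse. The 3 groups were LPS+Tβ4 (lipopolysaccharide together with thymosin β4), LPS (lipopolysaccharide alone, a cell wall component of Gram-negative bacteria used as endotoxin) and saline. Thymosin β4 is a small peptide that binds monomeric actin. The sources used here state no strain, sex, age, allele, dose, route or time of sampling.

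Metallothioneins are small cysteine-rich proteins that bind zinc and copper, and Mt1 and Mt2 encode the widely expressed pair. Their transcription is known to rise with zinc, through the factor MTF1 at metal response elements, and with glucocorticoids and inflammatory cytokines. Iron enters cells bound to transferrin through the transferrin receptor (Tfrc), leaves the endosome through the divalent metal transporter DMT1 (Slc11a2), is stored in shells built of ferritin heavy and light chains (Fth1, Ftl1) and leaves the cell through ferroportin (Slc40a1), the receptor of the hormone hepcidin. ZIP14 (Slc39a14) imports zinc, manganese and iron that is not bound to transferrin, and in mouse liver it is induced by interleukin-6. Iron regulatory proteins bind hairpins called iron-responsive elements when iron is low: in a 5′ UTR this blocks translation, and in a 3′ UTR it protects the mRNA from decay. Tubule cells of the kidney take up filtered iron, and in the body as a whole macrophages recycle iron from red cells.

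Matches to the iron-responsive element in the members are shown because iron acts on translation or decay through this hairpin. A script searched the GENCODE M21 transcripts (GRCm38) for a bulged C, a stem of 5 bases, a loop of 6 bases beginning CAGTG, and 5 bases that pair back with the stem, G-T pairs allowed. Capitals mark the bulged C and the loop, and each run of 30 bases is written 5′ to 3′ on the strand of the gene.
Slc40a1 5′ UTR, chr1:45925463-45925492 (-): aacttCagctaCAGTGTtagctaagtttgg
Tfrc 3′ UTR, chr16:32631220-32631249 (+): attatCggaagCAGTGCcttccataattat
Tfrc 3′ UTR, chr16:32631599-32631628 (+): attatCgggagCAGTGTcttccataatgca
Tfrc 3′ UTR, chr16:32631664-32631693 (+): tatatCggagaCAGTGAtctccatatgtta
Tfrc 3′ UTR, chr16:32631711-32631740 (+): attatCgggaaCAGTGTttcccataatttt
Fth1 5′ UTR, chr19:9982733-9982762 (+): tcctgCttcaaCAGTGCttgaacggaaccc
Ftl1 5′ UTR, chr7:45459777-45459806 (-): tcttgCttcaaCAGTGTttgaacggaacag

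Of 21877 coding genes, 294 (1.34%) held at least 1 such hairpin. In Tfrc all 4 lay in the 3′ UTR, and in Slc40a1, Fth1 and Ftl1 the single hairpin lay in the 5′ UTR. The hairpin was in 4 of 5 coding transcripts of Fth1, 1 of 2 of Ftl1, 1 of 4 of Slc40a1 and 1 of 3 of Tfrc. No transcript of Mt1, Mt2, Slc39a14 or Slc11a2 matched these letters. The search required all 5 stem bases to pair, so it would miss hairpins of another shape. A gene without a match may therefore still hold an element, and one with matches may hold more. The counts are per gene and do not tell transcripts with and without the hairpin apart.

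The promoters of the metallothionein pair are shown because Mt1 and Mt2 had the largest changes of the 8 genes against saline, in both treated groups. Sequences are from RefSeq (GRCm38.p6), 250 bases before to 30 after the start of transcription, and capitals mark the metal response element, searched as TGCACNC or TGCGCNC on both strands of windows of 300 bases.
Mt1, chr8:94178839-94179118 (+): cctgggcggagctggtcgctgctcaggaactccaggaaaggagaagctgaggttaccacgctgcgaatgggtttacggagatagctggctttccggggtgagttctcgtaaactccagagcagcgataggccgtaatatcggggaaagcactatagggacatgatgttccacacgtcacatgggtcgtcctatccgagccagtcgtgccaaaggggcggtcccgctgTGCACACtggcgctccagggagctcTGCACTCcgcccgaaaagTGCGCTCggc
Mt2, chr8:94172368-94172647 (+): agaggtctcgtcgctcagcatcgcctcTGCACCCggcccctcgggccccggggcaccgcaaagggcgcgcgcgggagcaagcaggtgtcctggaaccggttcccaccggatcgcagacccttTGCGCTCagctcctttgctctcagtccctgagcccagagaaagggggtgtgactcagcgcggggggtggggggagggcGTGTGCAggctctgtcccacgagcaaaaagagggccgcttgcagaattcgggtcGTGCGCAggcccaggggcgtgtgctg

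Mt1 held 3 matches, at -23, 3 and 21 from its start, and Mt2 held 4, at -223, -128, -50 and 5. These positions are counted from the RefSeq start used, which was not checked against the libraries. Elements outside the window of 300 bases, or at another start of the gene, were not searched. Of 32851 promoter windows in the table, 25.7% held at least 1 match, 2.0% at least 3 and 0.517% at least 4. Mt2 also held TGACTCAGC at -79, a match to the antioxidant response element searched as TGACNNNGC, which 12.4% of windows hold. Tfrc has 2 windows, of which 1 held 2 overlapping matches to the metal response element, and Fth1 (2 windows) and Ftl1 held none. Slc39a14, Slc40a1 and Slc11a2 have no entry in the promoter table.

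The libraries held 53 to 62 M counts, with scaling factors of 0.875 to 1.16. The 8 genes together took 1.02% to 1.68% of counts in LPS+Tβ4 libraries, 1.19% to 1.42% in LPS libraries and 0.484% to 0.632% in saline libraries. Kidney markers were present in every library: all 12 proximal tubule genes were detected, and their summed level was 6006 to 15072 CPM in LPS+Tβ4, 6068 to 22451 CPM in LPS and 33529 to 35161 CPM in saline kidneys. Transcripts of 9 neural genes (among them Mobp, Mbp, Gfap and Camk2a) stood apart in LPS+Tβ4 libraries, with sums of 519 to 626 CPM, against 31.4 to 185 CPM in LPS and 62.7 to 70.0 CPM in saline libraries. Urothelial transcripts varied within every group, from 0.758 to 65.9 CPM in LPS+Tβ4, 0.930 to 55.1 CPM in LPS and 2.13 to 87.0 CPM in saline libraries. Levels below are counts per M after TMM scaling (CPM), given for replicates 1, 2 and 3. Each change is a log2 fold change ± its SE, from edgeR's quasi-likelihood test with Benjamini-Hochberg adjustment. In whole kidney, fewer cells of a type and less RNA per cell cannot be told apart.

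In LPS against saline kidneys, the metallothioneins, Slc39a14 and Fth1 rose, Slc11a2 fell, and Slc40a1, Tfrc and Ftl1 did not pass the test. Of the 8 genes 5 passed, 4 higher and 1 lower, where 43.1% of all tested genes passed, 20.9% higher and 22.2% lower. For 5 of the 8 the groups did not overlap, as for 54.3% of all genes. The median change was 0.63 over the 8 genes and 0.02 over all genes.

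In LPS+Tβ4 against LPS kidneys, Slc40a1 and Tfrc rose, and no member passed the test as lower. That makes 2 of 8, where 6.83% of all genes passed, 4.5% higher and 2.33% lower. Mt1 (-1.16) and Mt2 (-0.95) lay below every LPS library but did not pass. The ranges of 5 of the 8 did not overlap, against 26.3% of all genes, and the median change was 0.25 over the 8 genes and -0.01 over all genes. In LPS+Tβ4 against saline kidneys 5 rose (Mt1, Mt2, Slc39a14, Slc40a1 and Fth1) and 0 fell, where 24.1% of all genes passed, 12.3% higher and 11.8% lower. Ranges did not overlap for 6 of the 8, against 50.9% of all genes. The median change was 1.24 over the 8 genes, against -0.00344 over all genes. The 3 comparisons share groups, so they are not independent of each other.

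**Figure D1:**
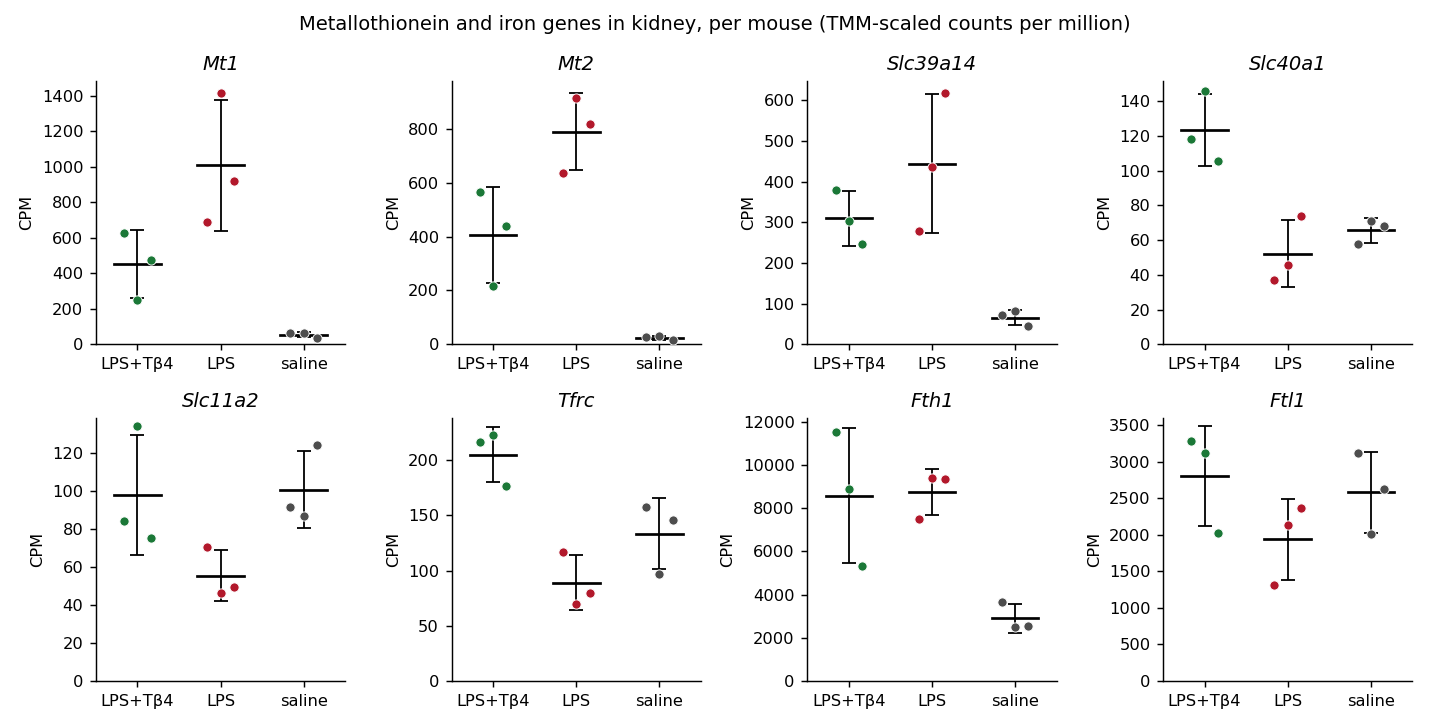
Levels of the 8 genes in CPM (vertical axes) in each library, with the 3 groups along the horizontal axis and the mean and SD of 3 mice drawn over the points. Mt1, Mt2, Slc39a14 and Fth1 are lowest in saline kidneys, while Slc40a1 and Tfrc are highest in LPS+Tβ4 kidneys.

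Mt1 (ENSMUSG00000031765, chromosome 8 at 94179082 to 94180327 in GRCm38, plus strand) had 628, 248 and 476 CPM in LPS+Tβ4 kidneys, 691, 1414 and 920.2 CPM in LPS kidneys and 63.4, 60.5 and 36.5 CPM in saline kidneys. All LPS libraries lay above all LPS+Tβ4 libraries, and these above all saline libraries. It rose 18.9-fold in LPS against saline kidneys (4.24 ± 0.45, adjusted p = 0.00026) and 8.43-fold in LPS+Tβ4 against saline kidneys (3.08 ± 0.42, adjusted p = 0.0018). The difference of LPS+Tβ4 from LPS, -1.16 ± 0.40 with a 95% interval of -2.07 to -0.26, did not pass (adjusted p = 0.11).

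Mt2 (ENSMUSG00000031762, chromosome 8 at 94172664 to 94173568, plus strand), the neighbour of Mt1, had 567, 215 and 440.3 CPM in LPS+Tβ4 kidneys, 635, 916 and 816 CPM in LPS kidneys and 26.8, 29.3 and 16.0 CPM in saline kidneys. The order of the groups was that of Mt1, with no overlap between any 2 groups, and LPS+Tβ4 replicate 2 was the lowest treated library for both genes. Mt2 rose 32.8-fold in LPS against saline kidneys (5.04 ± 0.43, adjusted p = 0.00011) and 16.9-fold in LPS+Tβ4 against saline kidneys (4.08 ± 0.41, adjusted p = 0.00054). LPS+Tβ4 differed from LPS by -0.95 ± 0.36 (interval -1.79 to -0.12, adjusted p = 0.15), which did not pass. Gm45774, annotated antisense to Mt2, had counts equal to 2.63% to 5.55% of those of Mt2, and no source used here gives the strand setting of the counting, so reads of the pair cannot be told apart.

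By FPKM, Mt2 stood above Mt1 in every treated kidney and was level with it in saline kidneys. In CPM, as given above, Mt1 was above Mt2 in every library. The lengths behind the FPKM values are not stated, so which of the pair was higher could not be settled. The ratio of Mt2 to Mt1 in FPKM was 1.91, 1.83 and 1.96 in LPS+Tβ4 kidneys, 1.95, 1.37 and 1.88 in LPS kidneys and 0.896, 1.03 and 0.929 in saline kidneys. Saline libraries lay below all others, and LPS+Tβ4 overlapped LPS. The log2 difference was 0.85 for LPS against saline and 1.00 for LPS+Tβ4 against saline (2-sided exact permutation p = 0.1 each, the smallest that 3 against 3 allows, 0.12 adjusted over 6 ratio tests), and 0.15 for LPS+Tβ4 against LPS (exact p = 0.6).

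Slc39a14 (ENSMUSG00000022094, chromosome 14 at 70303469 to 70351425, minus strand), the importer ZIP14, had 379, 304 and 246 CPM in LPS+Tβ4 kidneys, 278, 437 and 619 CPM in LPS kidneys and 70.9, 81.0 and 45.1 CPM in saline kidneys. Both treated groups lay above every saline library and overlapped each other. It rose 6.77-fold in LPS against saline kidneys (2.76 ± 0.35, adjusted p = 0.00055) and 4.71-fold in LPS+Tβ4 against saline kidneys (2.24 ± 0.34, adjusted p = 0.0028). LPS+Tβ4 differed from LPS by -0.52 ± 0.33 (interval -1.27 to 0.22, adjusted p = 0.36).

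Tfrc (ENSMUSG00000022797, chromosome 16 at 32608920 to 32632794, plus strand), the transferrin receptor with the 4 hairpins printed above, had 216, 222 and 176 CPM in LPS+Tβ4 kidneys, 117, 69.6 and 79.8 CPM in LPS kidneys and 158, 96.8 and 146 CPM in saline kidneys. LPS+Tβ4 libraries lay above all others, and LPS replicate 1 fell within the saline range. It rose 2.31-fold in LPS+Tβ4 against LPS kidneys (1.21 ± 0.25, interval 0.65 to 1.77, adjusted p = 0.031). LPS differed from saline by -0.59 ± 0.24 (adjusted p = 0.082) and LPS+Tβ4 from saline by 0.62 ± 0.24 (adjusted p = 0.1), neither of which passed. The call between LPS+Tβ4 and LPS was lost in the fit of the 6 libraries compared (adjusted p = 0.085), with a replicate block (0.067) and on leaving out saline replicate 3 (0.061), LPS replicate 2 (0.1), LPS replicate 3 (0.073), LPS+Tβ4 replicate 1 (0.091) or LPS+Tβ4 replicate 2 (0.13). The difference of LPS+Tβ4 from saline passed in 4 of 21 alternatives: limma on log2 FPKM with a pseudocount of 1 (0.039) or 0.1 (0.042), library totals with no scaling factor (0.045), and without LPS replicate 1 (0.039). That of LPS from saline passed without LPS replicate 1 (0.023) or saline replicate 2 (0.038). Erythroid cells use this receptor, and 5 of 6 tested erythroid markers fell in LPS+Tβ4 against LPS kidneys. Their list summed to 188 to 269 CPM in LPS+Tβ4 and 539 to 709 CPM in LPS kidneys. The remaining marker, Slc4a1, was higher at an unadjusted p under 0.05, without a call. It had 4.95, 4.48 and 3.12 CPM in LPS+Tβ4, 2.54, 1.53 and 0.857 CPM in LPS and 37.7, 41.3 and 42.1 CPM in saline kidneys. The globin gene Hbb-bs overlapped between LPS (203, 204 and 282 CPM) and saline kidneys (255, 251 and 235 CPM). Slc4a1 thus did not follow that globin gene between saline and LPS kidneys. The part of erythroid cells in the Tfrc result was not tested.

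Slc11a2 (ENSMUSG00000023030, chromosome 15 at 100387898 to 100424092, minus strand), DMT1, had 84.1, 134 and 75.0 CPM in LPS+Tβ4 kidneys, 70.6, 46.4 and 49.2 CPM in LPS kidneys and 91.2, 86.5 and 124 CPM in saline kidneys. LPS libraries lay below all others, and LPS+Tβ4 overlapped saline. It fell in LPS against saline kidneys (-0.86 ± 0.27, adjusted p = 0.029). LPS+Tβ4 differed from LPS by 0.82 ± 0.27 (interval 0.21 to 1.42, adjusted p = 0.1) and from saline by -0.04 ± 0.26 (interval -0.64 to 0.56, adjusted p = 0.93). The fall was lost in 9 of 21 alternatives, among them those without LPS replicate 2 (adjusted p = 0.1) or 3 (0.079) and without saline replicate 1 (0.059) or 3 (0.12). Without LPS replicate 1, LPS+Tβ4 passed against LPS (0.037). Gm5475, on the opposite strand, had 0.371% to 2.34% as many counts.

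Slc40a1 (ENSMUSG00000025993, chromosome 1 at 45908068 to 45926523, minus strand), ferroportin, the only known cellular iron exporter, had 118, 146 and 106 CPM in LPS+Tβ4 kidneys, 37.1, 45.4 and 74.0 CPM in LPS kidneys and 57.5, 71.3 and 68.0 CPM in saline kidneys. Every LPS+Tβ4 library lay above every other library, and the LPS range enclosed the saline range. It rose 2.37-fold in LPS+Tβ4 against LPS kidneys (1.24 ± 0.25, interval 0.66 to 1.82, adjusted p = 0.031) and 1.88-fold in LPS+Tβ4 against saline kidneys (0.91 ± 0.25, adjusted p = 0.031). LPS differed from saline by -0.33 ± 0.25 (interval -0.90 to 0.24, adjusted p = 0.32). Without LPS replicate 3, the highest of its group, this became -0.67 (adjusted p = 0.023).

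The rise of Slc40a1 over LPS was lost in 8 of 21 alternatives: the 6 libraries compared (adjusted p = 0.11), the replicate block (0.074), and on leaving out saline replicate 1 (0.053), 2 (0.057) or 3 (0.061), LPS replicate 2 (0.1), LPS+Tβ4 replicate 1 (0.082) or LPS+Tβ4 replicate 2 (0.13). Its rise over saline was lost in 7: the replicate block (0.051), a urothelial covariate (0.053), and on leaving out saline replicate 1 (0.093), 2 (0.07) or 3 (0.075), LPS+Tβ4 replicate 1 (0.075) or LPS+Tβ4 replicate 2 (0.095). Macrophage markers moved with it in part: their sum was 108 to 135 CPM in LPS+Tβ4, 68.5 to 83.5 CPM in LPS and 70.3 to 124 CPM in saline kidneys, with 0 of 7 tested markers passing between LPS+Tβ4 and LPS and 6 higher at an unadjusted p under 0.05. Neural transcripts moved with it and with Tfrc: 8 of 9 neural markers rose in LPS+Tβ4 against LPS kidneys and 9 of 9 against saline kidneys. The part of these transcripts in either result was not tested.

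Fth1 (ENSMUSG00000024661, chromosome 19 at 9980598 to 9985092, plus strand), the heavy chain that oxidises iron, had 11543, 8908 and 5308 CPM in LPS+Tβ4 kidneys, 7495, 9389 and 9366 CPM in LPS kidneys and 3664, 2516 and 2523 CPM in saline kidneys. Every treated library lay above every saline library, and LPS lay within the LPS+Tβ4 range. It rose 3.02-fold in LPS against saline kidneys (1.59 ± 0.35, adjusted p = 0.0074) and 2.96-fold in LPS+Tβ4 against saline kidneys (1.57 ± 0.35, adjusted p = 0.014). LPS+Tβ4 differed from LPS by -0.03 ± 0.35 (interval -0.82 to 0.76, adjusted p = 0.97). The rise of LPS+Tβ4 over saline was lost with the replicate block (adjusted p = 0.051) and without saline replicate 2 (0.06) or 3 (0.058) or LPS+Tβ4 replicate 1 (0.056). Fth1 alone took 0.613% to 1.15% of all counts in LPS+Tβ4, 0.84% to 0.924% in LPS and 0.229% to 0.319% in saline libraries. Its annotated pseudogenes Fth-ps2 and Fth-ps3 had at most 9 counts in any library.

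Ftl1 (ENSMUSG00000050708, chromosome 7 at 45457944 to 45459884, minus strand), the light chain that aids mineral formation, had 3290.3, 3117 and 2025 CPM in LPS+Tβ4 kidneys, 1307, 2138 and 2371 CPM in LPS kidneys and 3121, 2010.3 and 2624 CPM in saline kidneys. The 3 groups overlapped, with the lowest value in LPS replicate 1. LPS differed from saline by -0.41 ± 0.31 (interval -1.13 to 0.30, adjusted p = 0.31), LPS+Tβ4 from LPS by 0.54 ± 0.31 (interval -0.18 to 1.25, adjusted p = 0.33) and LPS+Tβ4 from saline by 0.12 ± 0.31 (interval -0.59 to 0.83, adjusted p = 0.82). Its pseudogene Ftl1-ps1 had 1.13% to 1.38% as many counts, and no source used here says how the counting split reads between them.

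**Figure D2:**
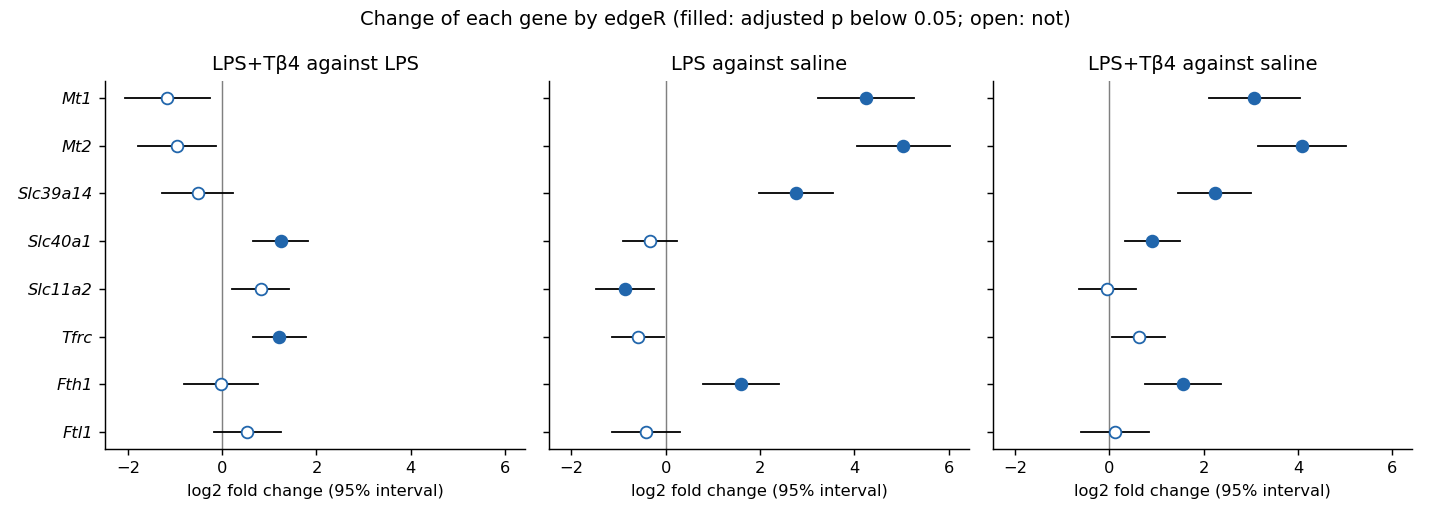
Log2 fold change of each of the 8 genes (horizontal axis) with its 95% interval from edgeR, in 3 panels for LPS+Tβ4 against LPS, LPS against saline and LPS+Tβ4 against saline. Filled points passed the adjusted p threshold of 0.05, and open points did not. Intervals of Mt1, Mt2, Slc39a14 and Fth1 lie above 0 against saline, and those of Slc40a1 and Tfrc lie above 0 in LPS+Tβ4 against LPS.

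The mRNAs of the ferritin chains, both with a hairpin in the 5′ UTR, differed in their response. Per length, the ratio of Fth1 to Ftl1 in FPKM was 1.36, 1.10 and 1.01 in LPS+Tβ4 kidneys, 2.21, 1.70 and 1.53 in LPS kidneys and 0.454, 0.483 and 0.371 in saline kidneys. No 2 groups overlapped. The log2 difference was 2.05 for LPS against saline, -0.64 for LPS+Tβ4 against LPS and 1.41 for LPS+Tβ4 against saline (2-sided exact permutation p = 0.1 each, the smallest that 3 against 3 allows; 0.12 adjusted over 6 ratio tests). On this scale Fth1 was above Ftl1 in all 6 treated libraries and below it in all 3 saline libraries. In CPM, Fth1 was above Ftl1 in saline replicates 1 (3664 against 3121) and 2 (2516 against 2010.3) as well. It was below Ftl1 in saline replicate 3 (2523 against 2624). The lengths behind the FPKM values are not stated, so the order of the genes within a library could not be checked.

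**Figure D3:**
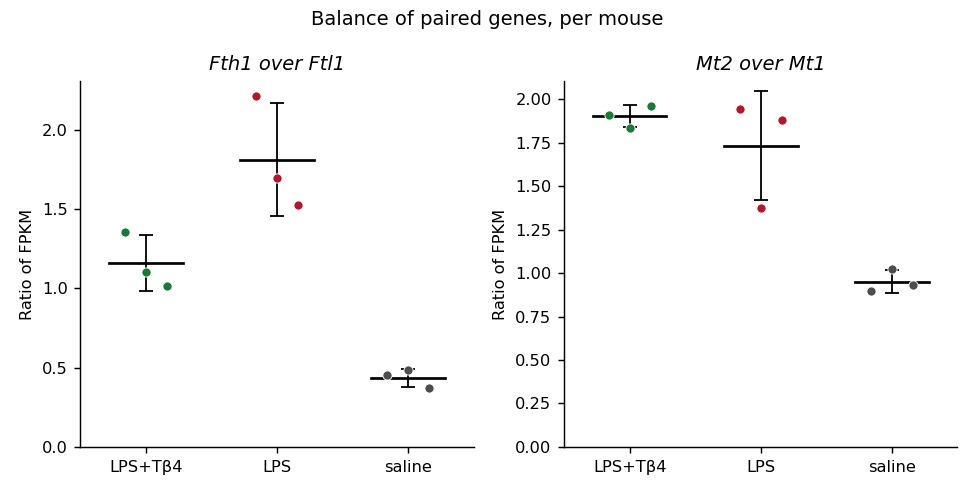
Ratios of FPKM values in each library for Fth1 over Ftl1 and Mt2 over Mt1 (vertical axes), by group, with mean and SD of 3 mice. Both ratios are lowest in saline kidneys, and Fth1 over Ftl1 averages 1.16 in LPS+Tβ4, 1.81 in LPS and 0.436 in saline kidneys.

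By level per length, Fth1 was the highest of the 8 genes in LPS+Tβ4 (2293 ± 689 FPKM) and LPS kidneys (2282 ± 63.1 FPKM), while Ftl1 was the highest in saline kidneys (1561 ± 233 FPKM, against 678 ± 116 FPKM for Fth1; SD, n = 3). Mt2 averaged 654 ± 279.8 FPKM in LPS+Tβ4, 1211 ± 126 FPKM in LPS and 33.5 ± 10.95 FPKM in saline kidneys. Mt1 averaged 341 ± 140.1 FPKM in LPS+Tβ4, 726 ± 227 FPKM in LPS and 35.1 ± 10.1 FPKM in saline kidneys. By FPKM the pair did not differ beyond its spread in saline kidneys. In CPM, saline kidneys averaged 2901 ± 661 for Fth1 and 2585 ± 556 for Ftl1. For the pair they averaged 53.5 ± 14.8 CPM (Mt1) and 24.0 ± 7.07 CPM (Mt2). By FPKM the transporters were lower. In LPS+Tβ4 kidneys Tfrc with 31.1 ± 1.76 FPKM stood beside Slc39a14 with 27.4 ± 4.05 FPKM, and in LPS kidneys Slc39a14 led with 37.4 ± 11.03 FPKM. In saline kidneys Tfrc had 17.4 ± 3.20, Slc11a2 12.9 ± 2.52, Slc40a1 5.98 ± 1.04 and Slc39a14 5.11 ± 1.64 FPKM, with Slc40a1 and Slc39a14 within each other's spread.

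Genes of the same pathways were counted in 6 lists drawn up with earlier results of these data known. Beside each list stand the shares of all tested genes: 20.9% rose and 22.2% fell in LPS against saline kidneys. These shares were 4.5% and 2.33% in LPS+Tβ4 against LPS, and 12.3% and 11.8% in LPS+Tβ4 against saline kidneys. Median changes over all genes were 0.02, -0.01 and -0.00344, in that order. In the zinc list 23 genes were tested: 10 rose and 5 fell in LPS against saline kidneys (median change 0.46), 2 rose and 1 fell in LPS+Tβ4 against LPS kidneys (-0.16), and 8 rose and 1 fell in LPS+Tβ4 against saline kidneys (0.20). Slc39a6, which encodes the zinc importer ZIP6, averaged 19.3 ± 3.95 CPM in LPS+Tβ4, 48.4 ± 13.1 CPM in LPS and 9.30 ± 2.61 CPM in saline kidneys. It rose in LPS against saline (2.38, adjusted p = 0.00051) and fell in LPS+Tβ4 against LPS kidneys (-1.32, adjusted p = 0.034), the only zinc gene to fall there. Slc30a9, of the ZnT family, fell with LPS (-1.26, adjusted p = 0.00085) and rose in LPS+Tβ4 against LPS (0.79, adjusted p = 0.037). Slc39a1 (1.25) and Slc30a7 (0.87) rose with LPS, and Slc39a5 was the only zinc gene to fall in LPS+Tβ4 against saline (-3.48, adjusted p = 0.011). Mt3, a metallothionein best known from brain, averaged 3.56 ± 0.748 CPM in LPS+Tβ4, 0.985 ± 0.366 CPM in LPS and 0.252 ± 0.0984 CPM in saline kidneys, and rose in LPS+Tβ4 against LPS (1.85, adjusted p = 0.039). In that comparison it moved with the neural transcripts given above, whose part in the result was not tested. Mt3 also rose in LPS against saline (1.96, adjusted p = 0.0074), where 0 of 9 neural markers rose and 1 fell (median change 0.05). The 3 zinc calls of LPS+Tβ4 against LPS varied with the alternative: the list count was 0 to 6, with 0 in the fit of the 6 libraries compared, with the replicate block, and on leaving out saline replicate 3, LPS replicate 2, LPS replicate 3, LPS+Tβ4 replicate 1 or LPS+Tβ4 replicate 2, and 6 without LPS replicate 1.

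Of 21 tested genes of iron uptake, reduction, storage and export, 8 rose and 5 fell in LPS against saline kidneys (median 0.19), 4 rose and 0 fell in LPS+Tβ4 against LPS kidneys (0.29), and 10 rose and 2 fell in LPS+Tβ4 against saline kidneys (0.62). Without those described above, 15 remained, with 6 higher and 4 lower, 2 higher and 0 lower, and 7 higher and 2 lower. Lcn2, which encodes the siderophore-binding protein NGAL, averaged 3325 ± 1556 CPM in LPS+Tβ4 and 6267 ± 2910.1 CPM in LPS, against 36.8 ± 2.35 CPM in saline kidneys. Cp, the ferroxidase ceruloplasmin that acts beside ferroportin, averaged 521 ± 101 CPM in LPS+Tβ4, 697 ± 178 CPM in LPS and 34.1 ± 6.96 CPM in saline kidneys (LPS against saline 4.36, adjusted p = 4.3e-05). Heph, its membrane-bound relative, averaged 8.87 ± 1.18 CPM in LPS+Tβ4, 5.00 ± 0.787 CPM in LPS and 16.2 ± 1.70 CPM in saline kidneys. It fell with LPS (-1.70, adjusted p = 0.00042) and rose in LPS+Tβ4 against LPS kidneys (0.83, adjusted p = 0.045). The metalloreductase gene Steap1 rose with LPS (2.98, adjusted p = 4.3e-05). Slc22a17, the receptor of NGAL, averaged 21.4 ± 2.49 CPM in LPS+Tβ4, 8.47 ± 2.57 CPM in LPS and 21.7 ± 1.04 CPM in saline kidneys, and rose over LPS in the LPS+Tβ4 group (1.34, adjusted p = 0.019). Heph and Slc22a17 moved with the neural transcripts in that comparison, and the part of these was not tested. The 4 calls of this list in LPS+Tβ4 against LPS were 0 in the fit of the 6 libraries compared, with the replicate block, and without LPS replicate 2, LPS+Tβ4 replicate 1 or LPS+Tβ4 replicate 2, and 1 or 2 without LPS replicate 3 or any 1 saline library. The 12 calls of LPS+Tβ4 against saline were 7 without saline replicate 3.

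Of 15 tested regulators of iron, 6 rose and 1 fell with LPS, 0 rose and 1 fell in LPS+Tβ4 against LPS, and 4 rose and 0 fell in LPS+Tβ4 against saline kidneys. Aco1, which encodes iron regulatory protein 1, a binder of the hairpins printed above, averaged 217 ± 39.9 CPM in LPS+Tβ4, 129.6 ± 34.2 CPM in LPS and 346 ± 28.3 CPM in saline kidneys. It fell in LPS against saline (-1.42, adjusted p = 0.0015), the only regulator to do so. Ireb2, which encodes iron regulatory protein 2, averaged 191 ± 37.8 CPM in LPS+Tβ4, 262 ± 142 CPM in LPS and 148 ± 5.98 CPM in saline kidneys. Its LPS range enclosed those of both other groups. Smad1, a carrier of BMP signals, rose with LPS (2.02, adjusted p = 0.00033) and fell in LPS+Tβ4 against LPS (-0.94, adjusted p = 0.042). Hfe, the gene of hereditary iron overload in man, averaged 62.2 ± 7.43 CPM in LPS+Tβ4 and 20.1 ± 1.56 CPM in saline kidneys (1.63, adjusted p = 0.00059), against 1.02 for LPS over saline (adjusted p = 0.0018). Zfp36, which encodes an mRNA-decay protein, rose in LPS against saline (1.65, adjusted p = 0.004). The single regulator call of LPS+Tβ4 against LPS, Smad1, is not stable: the list count was 0 in the fit of the 6 libraries compared, with the replicate block, with no expression filter and without any 1 library other than LPS replicate 1, where it was 2, and it was 3 with DESeq2. The 7 calls of LPS against saline were 4 without saline replicate 2, and the 4 calls of LPS+Tβ4 against saline were 2 without saline replicate 2 or 3.

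Of 21 heme genes, 4 rose and 9 fell with LPS (median -0.40), 3 rose and 0 fell in LPS+Tβ4 against LPS (0.48, with 11 higher at an unadjusted p under 0.05), and 3 rose and 3 fell in LPS+Tβ4 against saline (-0.06). The synthesis enzymes Uros (-2.77) and Cpox (-1.89) and the transporters Flvcr2 (-3.37) and Slc46a1 (-2.33) fell with LPS. Abcg2, which exports porphyrins, averaged 362 ± 109.9 CPM in LPS+Tβ4, 119 ± 35.4 CPM in LPS and 351 ± 56.2 CPM in saline kidneys (LPS+Tβ4 against LPS 1.60, adjusted p = 0.021). Uros (1.07, adjusted p = 0.027) and Cpox (1.24, adjusted p = 0.038) also rose in LPS+Tβ4 against LPS. Hmox1, the heme oxygenase that frees iron from heme, averaged 315 ± 177 CPM in LPS+Tβ4, 407 ± 268 CPM in LPS and 37.1 ± 1.06 CPM in saline kidneys (LPS+Tβ4 against saline 3.08, adjusted p = 0.0044). Alas1, the first enzyme of heme synthesis, rose in LPS+Tβ4 against saline (2.09, adjusted p = 0.0054). The 3 heme calls of LPS+Tβ4 against LPS were 0 in the fit of the 6 libraries compared, with the replicate block, and without LPS replicate 2 or LPS+Tβ4 replicate 2. They were 1 without LPS replicate 3, LPS+Tβ4 replicate 1 or any 1 saline library, 5 without LPS replicate 1 or LPS+Tβ4 replicate 3, and 7 with DESeq2.

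Of 26 genes of mitochondrial iron and iron-sulfur clusters, 5 rose and 12 fell with LPS (median -0.52), 5 rose and 1 fell in LPS+Tβ4 against LPS (0.25), and 3 rose and 4 fell in LPS+Tβ4 against saline (-0.31). Slc25a28, the mitochondrial iron importer mitoferrin-2, averaged 64.2 ± 7.87 CPM in LPS+Tβ4, 129.9 ± 26.5 CPM in LPS and 38.3 ± 4.27 CPM in saline kidneys. It rose with LPS (1.76, adjusted p = 0.00025) and was the gene that fell in LPS+Tβ4 against LPS kidneys (-1.02, adjusted p = 0.022). The mitochondrial transporters Abcb8 (-1.28) and Abcb10 (-1.14) fell with LPS, and Abcb8 (0.74), Nubpl (0.97) and Hscb (1.03) rose in LPS+Tβ4 against LPS. The 6 calls of that comparison were 0 in the fit of the 6 libraries compared, with the replicate block, and without LPS replicate 2, LPS+Tβ4 replicate 1 or LPS+Tβ4 replicate 2. They were 1 or 2 without LPS replicate 3 or any 1 saline library, and 11 with DESeq2. The 7 calls of LPS+Tβ4 against saline were 3 without saline replicate 1 or LPS+Tβ4 replicate 1 and 4 without saline replicate 3. Mitochondrial transcripts took 7.59% to 9.14% of counts in LPS+Tβ4, 7.64% to 10.6% in LPS and 12.9% to 16.2% in saline libraries. Of 11 copper genes, 1 rose and 1 fell with LPS: Slc31a2 (0.70, adjusted p = 0.011) and the copper importer gene Slc31a1 (-1.35, adjusted p = 0.0017). None passed edgeR's test in LPS+Tβ4 against LPS (2 higher and 1 lower at an unadjusted p under 0.05), and 2 fell in LPS+Tβ4 against saline, Slc31a1 (-0.80) and Sod1 (-0.78). These 2 calls were 0 without LPS+Tβ4 replicate 1 or 3 or any 1 saline library, and 1 without LPS+Tβ4 replicate 2.

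**Figure D4:**
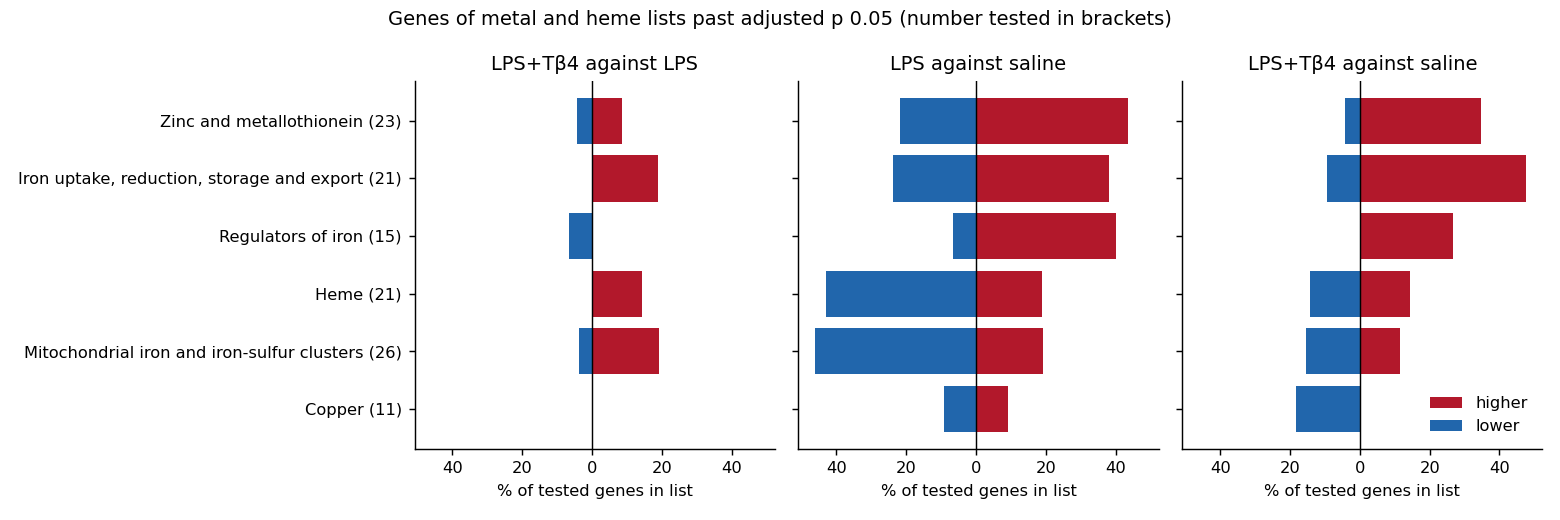
Share of tested genes in percent (horizontal axis) that were higher (right of 0) or lower (left of 0) at an adjusted p below 0.05 in each of 6 lists, in 3 panels, 1 for each comparison. Calls in LPS+Tβ4 against LPS are fewer in each list than in LPS against saline, as they are over all genes.

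For each of the 8 genes, the 3 genes with the closest pattern over the 9 libraries were sought among 11327 genes by the root mean square difference of log2 CPM centred on the saline mean, as a description. Closest to Mt1 were Ch25h (0.271), Xdh (0.305) and Ifi204 (0.344), where the median of all genes was 3.05, and closest to Mt2 were Serpina3g (0.393), Irf7 (0.423) and Mlkl (0.482). Slc39a14 lay closest to Ctps (0.255), Pvr (0.282) and Adamts1 (0.284). Fth1 lay closest to Ubald2 (0.161), Serpinb9 (0.205) and Rassf1 (0.23). For Slc40a1 they were Chn1 (0.273), Tspan7 (0.292) and Gmpr (0.293), for Tfrc Dusp3 (0.204), Slc25a34 (0.212) and Mus81 (0.233), for Slc11a2 Farp2 (0.15), Abca3 (0.161) and Fig4 (0.169), and for Ftl1 Gucd1 (0.158), Shld1 (0.178) and Slc30a5 (0.181). Among the 8 genes themselves, Mt2 ranked 96 in likeness to Mt1, and Tfrc ranked 155 in likeness to Slc40a1.

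Markers of other cell types were measured beside these results. Neutrophil transcripts are of cells whose granules hold NGAL. They summed to 25.7 to 91.9 CPM in LPS+Tβ4, 22.9 to 49.1 CPM in LPS and 0.521 to 1.37 CPM in saline kidneys. In LPS+Tβ4 against LPS their median change was 0.61, with 0 of 5 tested markers called. Mt1 (-1.16) and Mt2 (-0.95) were lower there, without passing. Against saline, neutrophil transcripts rose with Mt1, Mt2, Slc39a14, Fth1 and Lcn2, and Ly6g was at 0 in all saline libraries. Proximal tubule markers moved the other way, with 8 of 12 lower in LPS and in LPS+Tβ4 than in saline kidneys and 0 of 12 called between LPS+Tβ4 and LPS. Liver is a tissue known for high Mt1, Mt2 and Slc39a14. A list of liver markers summed to 493 to 879 CPM in LPS+Tβ4, 215 to 1716 CPM in LPS and 1064 to 1542 CPM in saline kidneys. Most of that sum, in every library but LPS replicate 1, was Cyp2e1, with 454 to 755 CPM in LPS+Tβ4, 105 to 1630 CPM in LPS and 938 to 1020 CPM in saline kidneys. In saline kidneys Cyp2e1 was level over the 3 replicates, while Alb, given below, was high in replicate 1 only. The sum is therefore not a measure of liver RNA. Of the other liver genes, Alb, Apoa1, Cps1 and Tat set 2 libraries apart, and the rest did so in part or not at all. In LPS+Tβ4 replicates 1, 2 and 3, Ttr had 17.3, 23.1 and 26.7 CPM and Serpina1a 80.6, 43.9 and 3.61 CPM. Apoa2 had 11.1 CPM in saline replicate 1 and at most 2.15 CPM in LPS+Tβ4 kidneys. Alb had 36.5 CPM in LPS+Tβ4 replicate 2, against 2.96 and 5.24 CPM in the others of its group, and 311 CPM in saline replicate 1, against 5.54 and 8.15 CPM in the others of its group. Cps1 had 3.89 CPM in that LPS+Tβ4 library, against 0 and 0.59 CPM, and 26.1 CPM in that saline library, against 0.243 and 0.333 CPM. The rises of Mt1, Mt2 and Slc39a14 over saline passed without either library. The part of these cell types in the results was not tested.

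**Figure D5:**
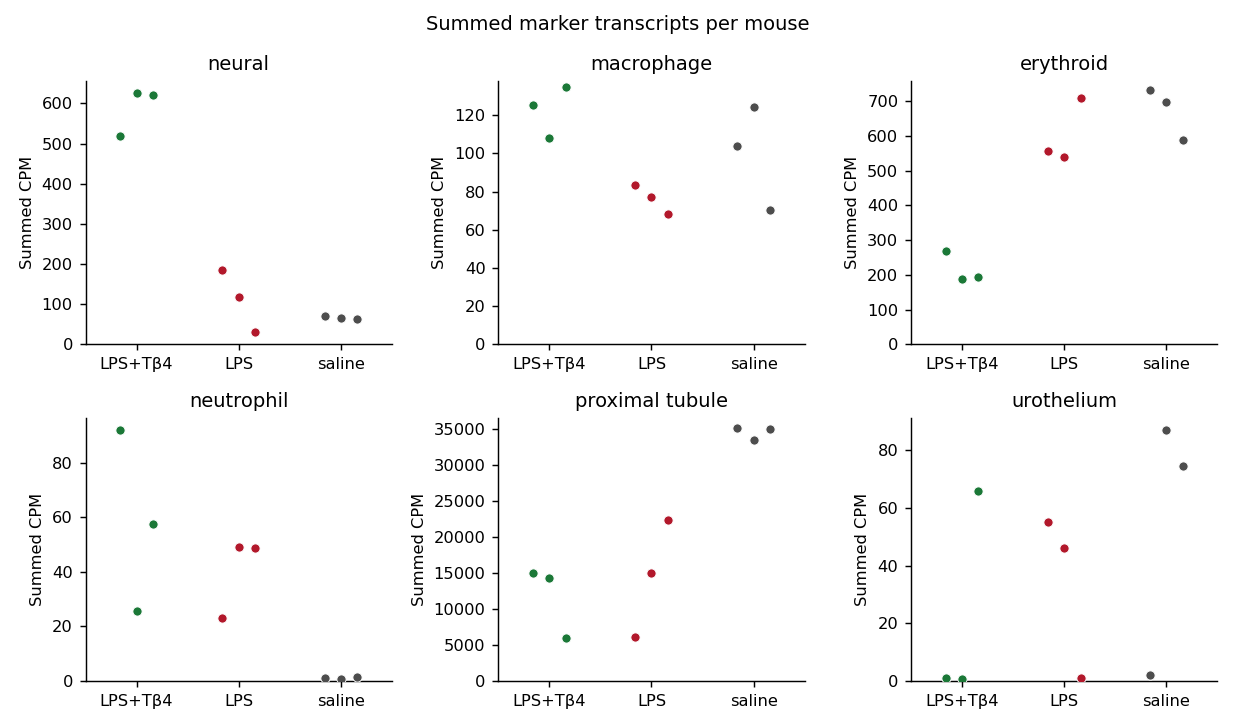
Summed CPM of 6 lists of cell type markers (vertical axes) in each library, by group. Neural markers are highest in the 3 LPS+Tβ4 libraries, erythroid markers lowest there, and neutrophil markers lowest in the 3 saline libraries.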

How the data were processed

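Poly(A) RNA of 9 mouse kidneys was sequenced as strand-marked paired-end libraries, per the labels' protocols. Tools named in the submitters' processing notes, without roles, were StringTie 2.1.6, HISAT2 2.2.1, cutadapt 1.9, edgeR and DESeq2, with the build GRCm38. The authors deposited a raw count and an FPKM value per gene and library, per the file headers, and no column was left unmapped; the counter and how FPKM was made are not stated. The test on counts was run in R 4.3.3 with edgeR 4.0.16 (TMM scaling, quasi-likelihood fit of all 9 libraries, a mean per group, 2-sided), for genes with a mean of at least 0.5 FPKM, with Benjamini-Hochberg adjustment over 15015 genes and a threshold of 0.05. The SE is the change over the square root of F. Ratios used FPKM and exact permutation tests. Library totals were 53 to 62 M counts.

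The 8 genes and the lists were chosen with earlier results of these data known. Of each list, up to 4 other genes with the smallest adjusted p and a mean of at least 1 FPKM are named, and any that alone moved one way; some are left out for length, and a result withheld for evaluation is not reported here. Ireb2 is named besides, as it encodes the other iron regulatory protein. Genes below the filter (such as Mt4, Tfr2 and Cybrd1) were not tested. Alternatives were limma 3.58.1 on log2 FPKM with pseudocounts of 1 and 0.1, DESeq2 1.42.0, other scalings and filters, the 6 libraries compared, a replicate block, robust estimation, a urothelial covariate, pseudogene counts added, and each library left out. The 3 mice of a group are separate animals by the design text. The chain was tested on simulated data. Figures used matplotlib 3.10.9 in Python 3.11.15.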

Additional observations from a re-analysis of the deposited data

How the results depend on the processing

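No member changed direction in a call under any of the 21 alternatives. Over 504 values of member changes, 459 kept their side of the threshold, 35 calls were lost and 10 gained. Mt1, Mt2 and Slc39a14 against saline, in both treated groups, and Fth1 in LPS against saline passed in all 21. The count of members called in LPS+Tβ4 against LPS was 4 with DESeq2 (3 higher, 1 lower), 0 with the 6 libraries compared and 0 with the replicate block, against 2, and leaving out 1 library gave 0 to 3. In LPS+Tβ4 against saline it was 3 with the replicate block, against 5, and 3 to 6 without 1 library; in LPS against saline it was 4 to 6. Over all genes, the count in LPS+Tβ4 against LPS was 647 with no expression filter, 2442 with DESeq2, 3 with the 6 libraries compared and 5 with the replicate block, against 1025, and 68 (without LPS+Tβ4 replicate 2) to 2672 (without LPS replicate 1) when a library was left out. In LPS+Tβ4 against saline, leaving out a library gave 2119 to 4544 genes, against 3617. Of 378 list counts, 299 stayed within 1.5 times the main count. Calls gained included Mt1 in LPS+Tβ4 against LPS with DESeq2 (adjusted p = 0.026) and Slc11a2 there (0.037). Deviations from group means did not pair libraries of the same number (r of -0.619 to 0.244 over 9 pairs, against -0.436 to 0.491 over 18 other pairs), so the numbers were not taken as pairs. Scaling by library totals alone, chosen after seeing the data, gave 673 higher and 168 lower calls in LPS+Tβ4 against LPS, where TMM gave 675 and 350, and 2571 and 1161 in LPS+Tβ4 against saline, where TMM gave 1852 and 1765. In LPS against saline it gave 3658 higher and 2581 lower, where TMM gave 3144 and 3329. Relative to TMM it shifted the median change of all genes by 0.15 in LPS against saline, 0.06 in LPS+Tβ4 against LPS and 0.21 in LPS+Tβ4 against saline. The causes of these differences were not tested.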
